A study of Schizosaccharomyces pombe with 4 samples.

Results

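The glycolysis and fermentation genes tdh1, eno101, pgk1, fba1, pyk1 and adh1 of fission yeast (Schizosaccharomyces pombe) were examined for small RNAs in a strain labelled ABP1d and a wild-type strain (WT). The genes were selected on measured values, since each holds at least 1 window of the authors' comparison of the strains, so the levels below are a description. They hold 11 of the 4012 windows of that comparison, found by an overlap of at least 1 base with the annotated gene, and are 6 of the 5113 protein-coding genes annotated on chromosomes I to III. In 5 of the genes a window at or near the 3′ end of the transcript was lower in ABP1d than in WT, and in adh1 all 3 windows, in coding sequence, were higher.

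Both strains were grown exponentially in rich medium with no treatment, and 2 libraries of small RNA were made from the total RNA of each. Abp1 is a DNA-binding protein of fission yeast related to the centromere protein CENP-B, and the labels do not spell out the change carried by the ABP1d strain. No window lies on its gene (named cbp1 in the annotation, chr2:3510427-3512370), so the label could not be checked against the data. The values are pooled over the 2 libraries of a strain and cover 23817270 reads for ABP1d and 14466014 for WT, with the depth of a single library unknown. No spread between libraries can be had from them, and no test between the strains was made. In bulk RNA, more cells with a small RNA and more of it per cell cannot be told apart.

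Glycolysis splits glucose into pyruvate and gains ATP on the way, and fermenting yeast turns the pyruvate into ethanol, which regenerates the NAD+ that glycolysis consumes. In fermenting yeasts the enzymes of lower glycolysis are among the most abundant proteins and their mRNAs among the most abundant messages. Small RNAs in fission yeast are best known as the guides of RNA interference at centromeric repeats, while fragments of abundant transcripts are also cloned in small RNA libraries. Strand is not recorded in the files although the labels describe a strand-specific protocol, so RNA of the gene and RNA of its opposite strand could not be separated.

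The 5 windows near the 3′ ends are shown first, because all of them were lower in ABP1d. Sequences are from RefSeq assembly ASM294v3, read 5′ to 3′ on the strand of the gene, with the window in capitals and neighbouring bases in lower case.
tdh1, chr2:2808939-2808968, plus strand: CTGAGCGTTTGTTTTTGAACTTATAAATAC
eno101, chr2:2202550-2202583, plus strand: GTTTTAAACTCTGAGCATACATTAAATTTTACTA
pgk1, chr2:4157837-4157858, minus strand: taatAAAGAAATAGAATATCTCGTATtttt
fba1, chr2:1689538-1689542, plus strand: gttcatactgttTTGAAattacgtgtttga
pyk1, chr1:3844860-3844870, minus strand: atacatggttCGCAGAACAGTtgatgtttc

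The other 6 windows lie in coding sequence or, for one of pyk1, in the 5′ UTR, and are shown because 5 of them go the opposite way. Capitals again mark the window.
pyk1 5′ UTR, chr1:3846638-3846649, minus strand: aacccacaaCATCAAAGTAGCctgcagaaa
pyk1 coding, chr1:3845249-3845263, minus strand: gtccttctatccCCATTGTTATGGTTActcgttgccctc
tdh1 coding, chr2:2807779-2807793, plus strand: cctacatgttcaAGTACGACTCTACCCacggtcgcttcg
adh1 coding, chr3:1591662-1591688, plus strand: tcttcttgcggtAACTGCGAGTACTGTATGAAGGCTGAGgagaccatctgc
adh1 coding, chr3:1592320-1592337, plus strand: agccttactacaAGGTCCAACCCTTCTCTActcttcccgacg
adh1 coding, chr3:1592339-1592354, plus strand: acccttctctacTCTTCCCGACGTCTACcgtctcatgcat

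The windows are 5 to 34 bases long and hold 10 to 90 reads over both strains, with a median of 17. A window of 5 bases is shorter than any small RNA and marks the stretch the authors' caller listed, not the ends of an RNA. None of the 11 holds a run of 15 or more A or T, and none is in the authors' list of abundant regions of either strain. Only windows with a p-value of up to 0.0494 are in the authors' deposited table, so other stretches of these genes were not analysed here. Of the 11 windows 5 were higher in ABP1d and 6 lower. Of all windows compared, 82.9% were higher in ABP1d, and 85.5% of the 868 windows on protein-coding genes were. Both shares include windows with a run of 15 or more A or T. Of the 740 windows without such a run in a single protein-coding gene, 91.5% were higher. Levels are given in RPM (the read count scaled to the strain's total), and each ratio has an exact 95% binomial interval that covers counting error only. Where a strain has 0 reads, 3 reads in the pool of its libraries were taken as the floor, and the fold is then a bound.

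**Figure D1:**
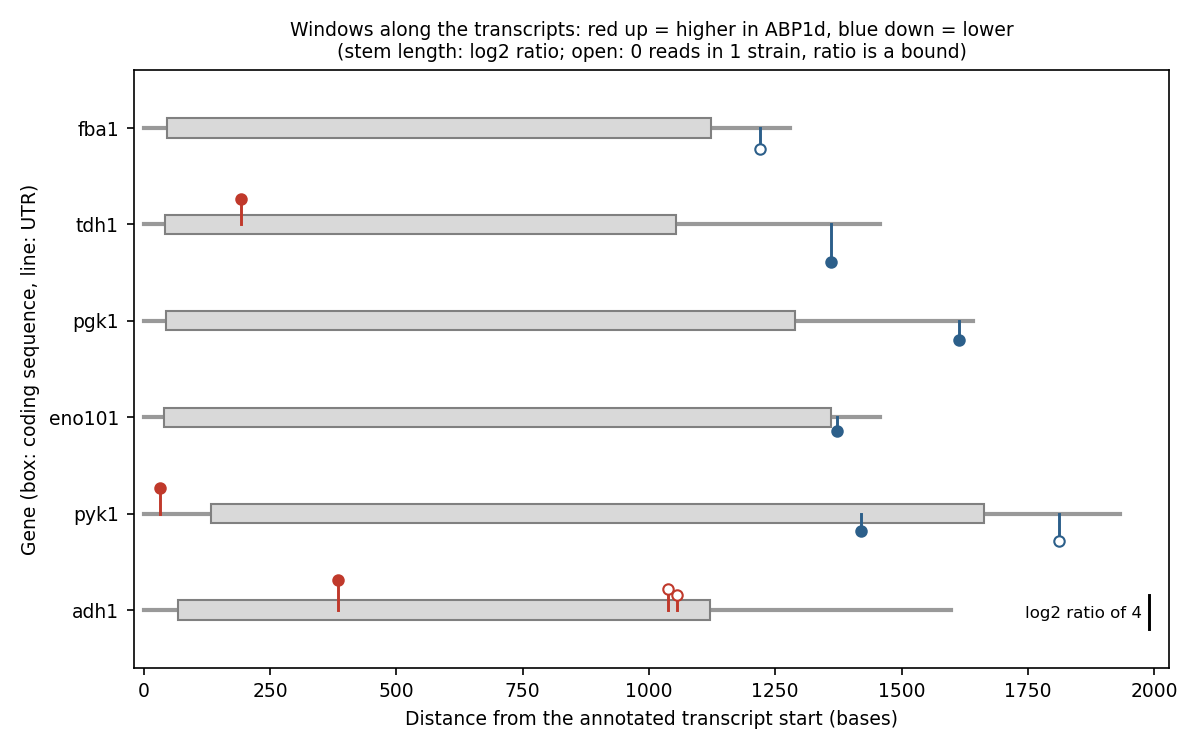
The windows of the 6 genes along their annotated transcripts, in bases from the transcript start, with boxes for coding sequence, lines for UTRs and stems scaled to the log2 ratio of ABP1d over WT (up and red for higher in ABP1d, down and blue for lower, open where 1 strain has 0 reads). In 5 genes a blue stem stands past or at the end of the coding box, pyk1 has another inside it, and the 3 windows of adh1 all point up.

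The window in the 3′ UTR of tdh1, which encodes glyceraldehyde-3-phosphate dehydrogenase, held 7 reads in ABP1d and 83 in WT, or 0.294 and 5.74 RPM. The level was 19.5-fold higher in WT (95% interval 9.07 to 50.1). It covers bases 1345 to 1374 of a transcript of 1457 bases, 291 bases after the stop codon and 83 bases from the annotated end. Among the 740 windows without an A/T run that lie in a single protein-coding gene, this log2 ratio ranks 2nd from the lowest with 0 reads set to 3 and its WT level 7th from the highest. The p-value in the authors' deposited table is listed as 0.

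The eno101 window, in a gene of enolase, held 17 reads in ABP1d and 30 in WT. These are 0.714 and 2.07 RPM, a level 2.91-fold higher in WT (1.55 to 5.62). It spans the stop codon, with 7 coding bases and 27 bases of 3′ UTR, and ends 69 bases before the transcript end. The pgk1 window, in the gene of phosphoglycerate kinase, held 7 and 19 reads, or 0.294 RPM in ABP1d and 1.31 RPM in WT. The fold toward WT was 4.47 (1.80 to 12.6). It starts 313 bases after the stop codon and lies 16 bases from the end, where the long noncoding RNA SPNCRNA.6456 is annotated on the opposite strand.

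Both remaining windows of this kind had no read in ABP1d. In fba1, the gene of fructose-bisphosphate aldolase, 10 WT reads (0.691 RPM) covered 5 bases that lie 94 bases after the stop codon and 57 from the end. The WT level was at least 5.49-fold higher against the floor, and the exact lower limit is 3.69-fold. In the 3′ UTR of pyk1, the gene of pyruvate kinase, 16 WT reads (1.11 RPM) covered 11 bases, 142 bases after the stop codon and 117 from the end. The WT level was at least 8.78-fold higher against the floor, with an exact lower limit of 6.35-fold.

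Taken over the 5 windows, WT had 158 reads and ABP1d 31, or 10.9 and 1.30 RPM, an 8.39-fold higher level in WT (5.68 to 12.8). Without tdh1, the counts were 75 and 24 and the fold was 5.15 (3.21 to 8.52). Among windows without an A/T run in a single protein-coding gene, 8.97% of the 156 in 3′ UTRs were lower in ABP1d, which is 14 windows, and these genes supply 5 of them. Another of the 14 belongs to pdc101, a pyruvate decarboxylase gene described below. The 5 windows lie 16 to 117 bases from the transcript end, with a median of 69. The 9 other lower windows in 3′ UTRs lie at a median of 159 bases and the 142 higher ones at a median of 135.5. The 5 windows have a median GC content of 23.5%, with that of pyk1 at 54.5%, against 21.9% for the 9 other lower windows and 38.9% for the 142 higher ones. The genes were selected with these directions in view, so neither position nor GC content was tested.

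**Figure D2:**
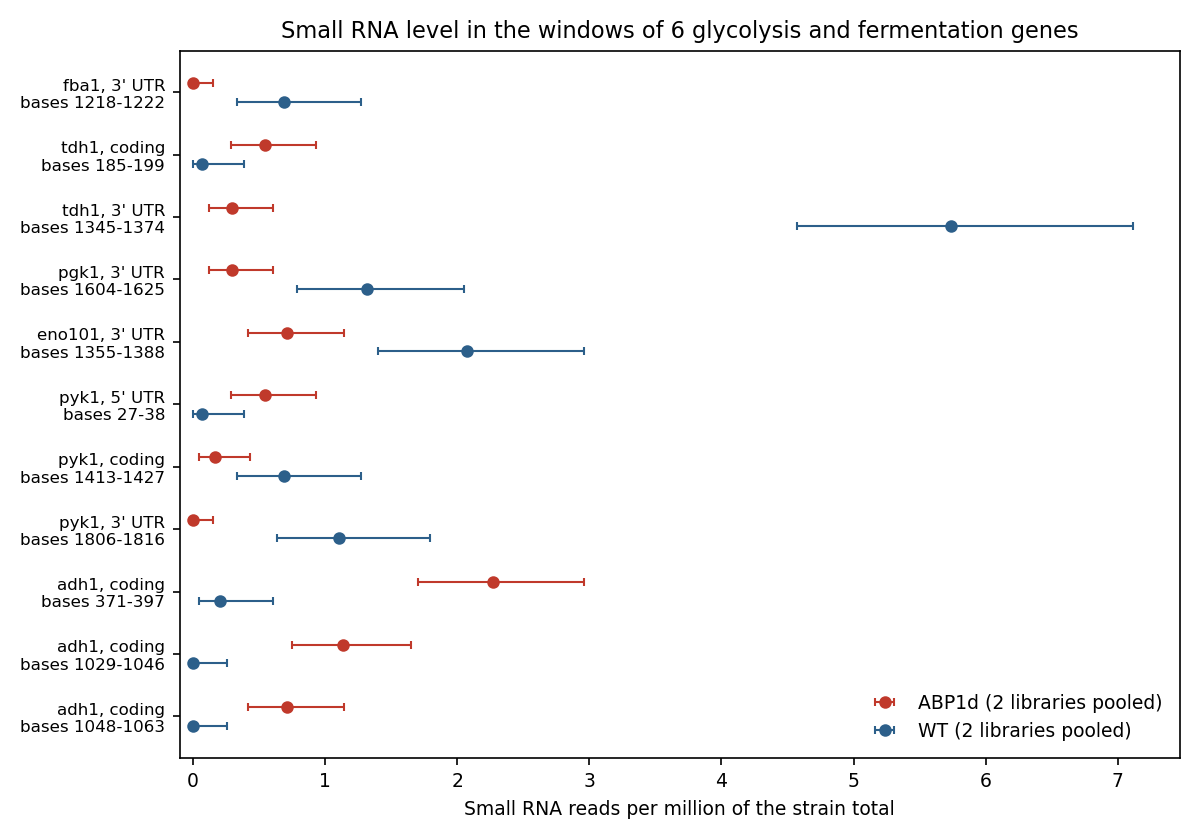
Level of small RNA in each of the 11 windows, in RPM, for ABP1d (red) and WT (blue), each a pool of 2 libraries with an exact 95% interval for counting error. The tdh1 3′ UTR window at 5.74 RPM in WT stands far to the right, and in ABP1d the adh1 windows are at 0.714 to 2.27 RPM, the lowest of them level with eno101 at 0.714 RPM.

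Along the annotated genes tdh1 and pyk1 the 2 directions occur side by side. In tdh1, a window 142 bases after the first coding base held 13 reads in ABP1d and 1 in WT, 0.546 against 0.0691 RPM. The ratio was 7.90 (1.19 to 336), an interval that a single WT read leaves very wide. In pyk1, 13 and 1 reads also fell in the 5′ UTR, 96 bases before the start codon, with the same ratio. Downstream of it, a window at bases 1413 to 1427 of 1933, still in coding sequence, held 4 and 10 reads, a level 4.12-fold higher in WT (1.19 to 18). The 3′ UTR window with 0 and 16 reads comes last. In both genes, then, the window nearest the transcript start was higher in ABP1d and the window nearest the end was lower. Without strand, it is unknown whether the windows of a gene come from the same RNA. Both lower pyk1 windows lie under a noncoding RNA of the opposite strand, and the tdh1 coding window lies in sequence shared with gpd3.

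Of the 98 protein-coding genes with at least 2 windows, 14 hold windows of both directions. In 12 of the 14 every lower window lies downstream of every higher one, and tdh1, pyk1 and tpi1, the triosephosphate isomerase gene, are among the 12. Most of the 12 have only 1 window of each direction, and the order was not tested. Their lower windows have middles from 10.4% (erg11) to 93.7% (pyk1) of the transcript, so downstream does not mean near the end. In rps7 the lower window lies upstream, and in rpl2402 it lies among higher ones. Just past the transcript ends of 3 of the genes, the nearest windows outside were higher in ABP1d, as were 82.9% of all windows compared. One lies 131 bases past tdh1 with 18 and 1 reads, another 63 bases past pyk1 with 13 and 1 reads, and one 96 bases past adh1 with 45 and 5 reads. The nearest windows on all other sides of the 6 genes lie 1441 to 56148 bases away. Of those, the windows upstream of eno101 and pyk1 and downstream of fba1 were lower in ABP1d and the rest were higher.

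The tdh1 coding window has a double in gpd3, the second glyceraldehyde-3-phosphate dehydrogenase gene. It lies in a stretch of 32 bases that is identical in both genes, shown with the tdh1 window in capitals.
tdh1 and gpd3: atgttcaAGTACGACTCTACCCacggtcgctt
The gpd3 window in that stretch, chr2:578874-578887, held 11 reads in ABP1d and 1 in WT. Reads that lie wholly inside that stretch cannot be told apart. Of the 39 stretches of 25 bases that touch the tdh1 window, 8 occur elsewhere in the genome, so longer or shifted reads could be assigned, and how the authors placed such reads is not stated. The tdh1 3′ UTR window has none of its 25-base stretches elsewhere in the genome and does not share this limit.

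All 3 windows of adh1, the gene of the main fermentative alcohol dehydrogenase, lie in coding sequence and were higher in ABP1d. The window at bases 371 to 397 of its 1598-base transcript held 54 reads in ABP1d and 3 in WT, 2.27 against 0.207 RPM. That is a ratio of 10.9 (3.55 to 54.7). The window at bases 1029 to 1046 held 27 reads in ABP1d (1.13 RPM) and 0 in WT, at least 5.47-fold higher in ABP1d against the floor, with an exact lower limit of 4.15. The window at bases 1048 to 1063 held 17 and 0 reads, at least 3.44-fold higher, with a lower limit of 2.51. The latter pair is a single base apart and each is shorter than a typical small RNA, so a read can have been counted in both.

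The adh1 windows all lie under adh1AS, a long noncoding RNA annotated on the opposite strand, and the window 96 bases beyond adh1 is inside adh1AS as well. Without strand, reads of adh1 and of adh1AS cannot be told apart. The lower windows of pyk1 also lie under a noncoding RNA on the opposite strand, SPNCRNA.3712. With the pgk1 window, 6 of the 11 windows thus lie under an annotated RNA of the opposite strand. None is annotated over the tdh1, eno101 and fba1 windows or the pyk1 5′ UTR window, but the strand of their reads is unknown as well.

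Over the coding sequences, 4 windows were higher in ABP1d and 1 was lower, with 115 and 14 reads in sum and a ratio of 4.99 (2.86 to 9.41). Of these reads adh1 supplies 98 and 3, so the summed ratio is mostly that of adh1. It also holds the adh1 windows 1 base apart, where a read can have been counted in both. The tdh1 coding window held 13 and 1 reads and the pyk1 coding window 4 and 10. In direction, these 5 windows are close to the background, where 9.6% of the 354 coding windows without an A/T run in a single gene were lower. In 5′ UTRs 6.86% of 175 such windows were lower, and the only one here, in pyk1, was higher. The median log2 ratio of those 354 coding windows was 2.02, and the 5 coding windows here had a median of 2.45, with bounds counted as values. The coding windows of adh1 and tdh1 were thus on the side where most coding windows stand. The pyk1 coding window and the 3′ UTR windows were on the rarer side. Of the 5 higher windows, 4 have another window elsewhere in the table with the same length and reads, and leaving these out leaves 1, the adh1 window with 54 and 3 reads. Equal length and reads need not mean shared sequence. Of these 4 windows, only the tdh1 one has a 25-base stretch that occurs elsewhere in the genome. The part of such equal windows in the result was not tested.

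**Figure D3:**
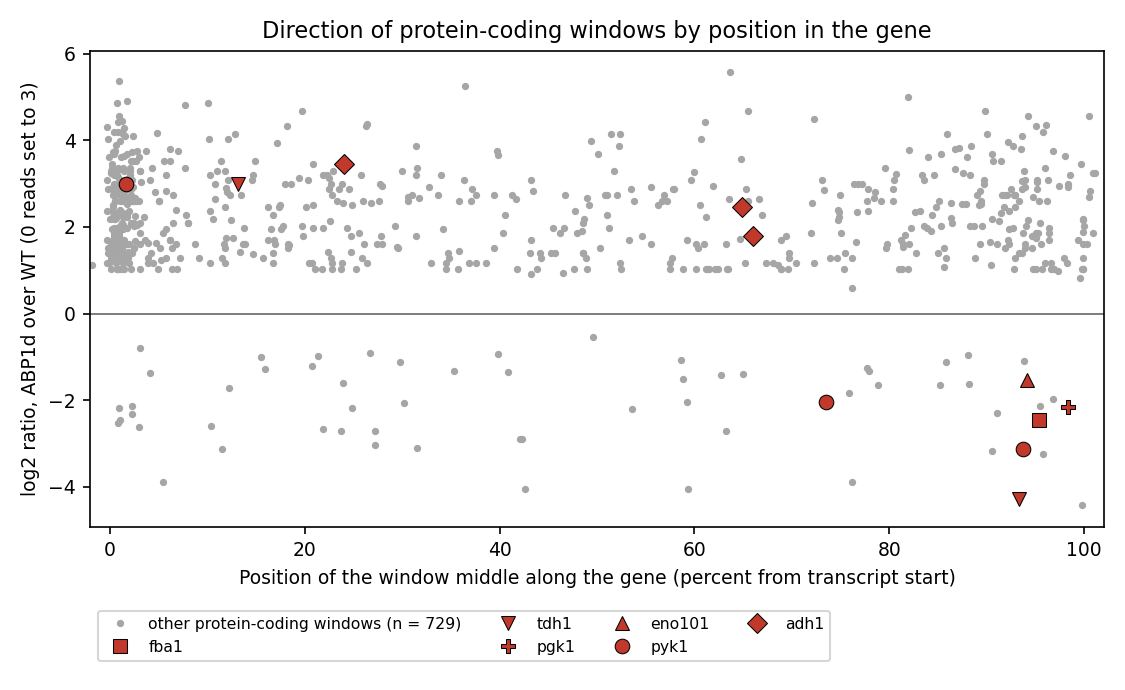
log2 ratio of ABP1d over WT for windows without an A/T run in a single protein-coding gene, against the position of the window's middle along the gene in percent from the transcript start, with 0 reads set to 3. Grey points are 729 windows of other genes, mostly above 0, and red symbols are the 6 genes, whose 5 windows past 90% lie below 0.

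Summed over its windows, adh1 had 98 and 3 reads, or 4.11 RPM in ABP1d and 0.207 RPM in WT. The ratio was 19.8 (6.59 to 97.9), a log2 ratio of 4.31. This sum holds both of the windows 1 base apart, and the interval takes all reads as separate, so it is too narrow if reads were counted in both. The first window alone gave 10.9 (3.55 to 54.7). The other 5 genes had sums on the WT side. The tdh1 sum was 20 and 84 reads, with WT 6.92-fold higher (4.21 to 11.9). Over the coding window alone its direction is the opposite, with a log2 ratio of 2.98 in place of -2.79. The pyk1 sum was 17 and 27 reads, 2.61-fold higher in WT (1.37 to 5.11), although 13 of the 17 reads came from the 5′ UTR window. With 0 reads set to 3, the order of the genes by log2 ratio was tdh1 at -2.79, fba1 at -2.46 as a bound, pgk1 at -2.16, eno101 at -1.54, pyk1 at -1.39 and adh1 at 4.31. With a floor of 1 read fba1 was at -4.04, below tdh1, so the place of fba1 depends on the floor. The intervals of neighbours in that order overlap from tdh1 to pyk1, and adh1 stands apart from all of them.

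Over all 11 windows ABP1d had 159 reads and WT 173, which makes the WT level 1.79-fold higher (1.44 to 2.24). A single window decides that sum. Without the tdh1 3′ UTR window the counts were 152 and 90 and the ratio of ABP1d over WT was 1.03 (0.785 to 1.35). Without adh1 they were 61 and 170, 4.59-fold higher in WT (3.41 to 6.25). The scale also matters, since the median log2 ratio of protein-coding windows was 2.02 on the totals used here. Relative to that median, adh1 stood at 2.29, eno101 at -3.56, pgk1 at -4.18, pyk1 at -3.40 and tdh1 at -4.81, and 4 windows were higher and 7 lower, because the adh1 window with 17 and 0 reads, whose ratio is a bound, crossed 0.

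Of 25 further genes of glucose uptake, glycolysis and fermentation, 9 hold windows, 16 in all, with 12 higher in ABP1d and 4 lower. Of all protein-coding windows, 85.5% were higher. Without A/T run windows, 80% of 15 were higher here, beside 91.5% of the 740 windows in a single protein-coding gene. The shares here are a little below the background on few windows, were not tested and say nothing particular of the pathway. The transporter genes account for 9 of the 12. Ght proteins carry hexoses across the plasma membrane, and 4 of 8 ght genes have windows, all higher in ABP1d. The only windows of ght1 and ght6, and 1 window each of ght5 and ght8, lie in sequence that these genes share. The same reads may therefore be counted in several of them. The sums of ght5 and ght8 each include such a window, with 20 and 3 reads and a ratio of 4.05 (1.20 to 21.3). ght5, which encodes a high-affinity glucose transporter, has 5 windows that sum to 128 and 6 reads, and the ratio of ABP1d over WT was 13.0 (5.79 to 36). Of its windows with reads in both strains, that with the highest ratio held 46 and 1 reads, a ratio of 27.9 (4.77 to 1127). Another held 18 and 2 reads, a ratio of 5.47 (1.31 to 48.6). A window with 32 and 0 reads was at least 6.48-fold higher in ABP1d against the floor, with an exact lower limit of 4.97. As a bound, that ratio has no fixed place in the order. ght8 has 2 windows with 88 and 8 reads in sum. One of them lies in the 3′ UTR, 106 bases from the end, with 68 and 5 reads and a ratio of 8.26 (3.37 to 26.3). The 3′ UTR window of ght5, with 12 and 0 reads, was also higher in ABP1d, opposite to the 3′ UTR windows of tdh1, eno101, pgk1, fba1 and pyk1. Centred on snRNA windows, 4 ght windows cross 0 and 8 of the 16 windows would count as lower, but 2 of the 4 have 0 WT reads, so their ratios are bounds and give no direction there. ght1 and ght6 have 1 window each, with 10 and 0 reads and 10 and 1 reads.

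Among enzymes of upper glycolysis, the tpi1 window that begins at the first base of the transcript held 187 and 13 reads, or 7.85 RPM in ABP1d and 0.899 RPM in WT. The ratio was 8.74 (4.99 to 16.7). Further along, bases 318 to 358 of the 957-base tpi1 transcript held 17 and 26 reads, 2.52-fold higher in WT (1.32 to 4.95). Triosephosphate isomerase interconverts the triose phosphates that aldolase, the product of fba1, releases. The pfk1 window, in the coding sequence of phosphofructokinase, held 18 and 23 reads, 2.10-fold higher in WT (1.09 to 4.14). pgi1, the hexokinase genes hxk1 and hxk2, gpm1 and eno102 have no window. In lower glycolysis, gpd3 was higher in ABP1d in its 5′ UTR with 15 and 2 reads and in the coding window shared with tdh1.

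Pyruvate decarboxylase turns pyruvate into acetaldehyde, the substrate of Adh1. The pdc101 window lies in the 3′ UTR, 45 bases after the stop codon and 44 from the end, and held 39 and 93 reads, or 1.64 RPM in ABP1d and 6.43 RPM in WT. The WT level was 3.93-fold higher (2.67 to 5.86), at a place and in a direction like those of tdh1, eno101, pgk1, fba1 and pyk1. The pdc201 window holds a run of 18 T in the 5′ UTR and had 2858 and 1981 reads, 1.14-fold higher in WT (1.08 to 1.21). Of the 59 windows with an A/T run in a single protein-coding gene 58 were lower, with a median log2 ratio of -0.20, and the pdc201 value of -0.19 is close to that median. pdc102, pdc202, adh4 and the side-branch genes gpd1, gpd2, zwf1 and fbp1 have no window.

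**Figure D4:**
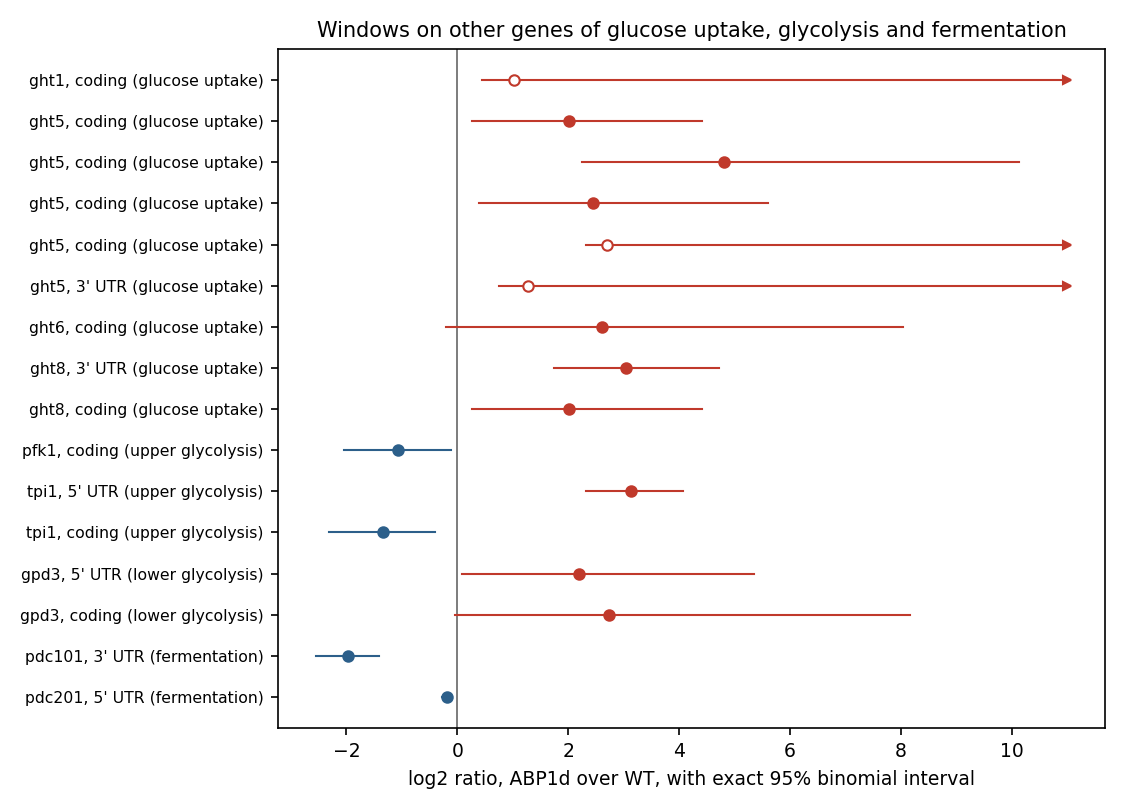
log2 ratio of ABP1d over WT, with exact 95% binomial intervals, for the 16 windows on 9 other genes of glucose uptake, glycolysis and fermentation, red for higher in ABP1d and blue for lower. Open symbols have 0 WT reads and are bounds, with arrows for open-ended intervals, and all 9 ght windows are on the right while those of pfk1, pdc101 and pdc201 and the coding window of tpi1 are on the left.

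Windows in other genes with abundant mRNAs are given for comparison, with no test of the difference, because the 6 genes were selected on these directions. The genes of cytosolic ribosomal proteins had 77 windows without an A/T run in a single gene, 64 higher in ABP1d and 13 lower, and 8 of their 9 windows in 3′ UTRs were higher. The translation elongation factor genes tef101 to tef103 had 20 windows, all 20 higher, with none in a 3′ UTR. The log2 ratios of the tef101 windows recur in the same order along tef102 and tef103. The same reads may therefore be counted in several of these genes, and the 20 windows cannot be taken as separate. In the remaining protein-coding genes 132 of 139 windows in 3′ UTRs were higher. By the distance between log2(RPM + 1) over the 2 pooled strains and the median pair of the 6 genes, the 5 most similar of 697 genes were rps1602 at 0.140, cut6 at 0.159, fsf1 at 0.186, pcs60 at 0.189 and SPAC7D4.08 at 0.232. With only 2 pooled values per gene, this likeness says only that the summed levels were near each other.

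In the authors' deposited table the p-values of the 11 windows reach 0.0158. They are 2.27e-08, 1.12e-06 and 0.000125 for adh1 in the order of its transcript, 0.000601 for eno101, 0.000506 for pgk1 and 2.43e-05 for fba1. For pyk1 they are 0.0114, 0.0158 and 8.04e-08 from start to end, and 0.0114 for the tdh1 coding window. How these p-values were computed is not stated in the labels or files.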

How the data were processed

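Small RNA libraries were prepared from total RNA with adapter ligation and selection by size, per the labels' protocols, and Bowtie 0.12.5 was used per the submitters' processing notes. Not given in the sources used here are the build, the annotation, the filters on reads, how reads that match in several places were handled, and how windows were called and tested. The authors deposited RPKM values pooled over the 2 libraries of a strain, and a p-value per window. RPKM times length gave whole reads for 100% of values to within 1e-06. The value columns were assigned by the lists of each strain, with 7 of 7 and 124 of 124 shared windows equal and 0 the other way.

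Coordinates were placed on RefSeq ASM294v3: 169 of 304 regions of the ABP1d list hold an A/T run of at least 15 bases at the listed place and 2 do after a shift of 1000 bases. Listed starts were read as 1-based and ends as 1 past the last base, since 3610 pairs of windows with equal reads are then exact reverse complements, against 0 with 0-based starts. Windows on 1 gene were placed in UTR or coding sequence by their middle.

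The members and lists were chosen with earlier results of these data known. All windows of the 6 genes and of a list of 25 pathway genes are given, with reads, ratio and interval for windows of at least 20 reads. Values of smaller windows and of rps7 and rpl2402 were added after they were seen. A count test had been foreseen for counts per library, but the values are pooled, so none was made. Ratios, intervals and floors were computed with Python 3.11.15 and SciPy 1.17.1 and cover counting error only. The steps were tested on 4012 simulated windows, where they recovered 100% of the reads and where 97.5% of the intervals contained the true ratio. The simulated counts had no spread between libraries and no selection on a p-value. They therefore cannot show how often intervals on the deposited windows, which were selected that way, hold the true ratio.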

Additional observations from a re-analysis of the deposited data

How the results depend on the processing

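No paired analysis was possible because the values are pooled over the 2 libraries of a strain, and for the same reason no library could be left out. Each of the 6 gene sums kept its direction under every setting that gave a value, except tdh1 under 1 setting. Its log2 ratio of -2.79 became 2.98 when coding exons alone were used, which drops its 3′ UTR window, and fba1 and pgk1 then have no window. Under that setting 2 of the 6 lower windows and 2 of the 4 lower windows of the pathway list were left. With at least 20 reads per window, 2 of the 5 higher and 3 of the 6 lower windows were left, 7 of the 12 higher ones of the list, and tdh1 was at -4.29, with no value for fba1 and pyk1. Leaving out windows equal to another in length and reads left 1 of the 5 higher windows and 3 of the 12 of the list, with tdh1 at -4.29, pyk1 at -3.42 and adh1 at 3.45 in place of 4.31. Centred on 5S windows, adh1 was at 3.06, eno101 was at -2.79, pyk1 at -2.64 and tdh1 at -4.04. Centred on snRNA windows, adh1 was at 2.28, eno101 at -3.57, pgk1 at -4.19, pyk1 at -3.42 and tdh1 at -4.82, with 8 lower windows on the list, 2 of them bounds. With a floor of 1 read in place of 3, fba1 was at -4.04 in place of -2.46. Centred on protein-coding windows, adh1 was at 2.29, eno101 at -3.56, pgk1 at -4.18, pyk1 at -3.40 and tdh1 at -4.81. Reading starts as 0-based, chosen after seeing the data, changed no count or sum. Depth limits the windows with 10 to 17 reads most.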

Other observations

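The hexose transporter genes share sequence where their windows lie. The windows of ght5 (chr3:212353-212373) and ght8 (chr3:228340-228360) have 20 reads in ABP1d and 3 in WT each and lie in a stretch of 89 identical bases, of which 45 are shown with the window in capitals.
ght5 and ght8: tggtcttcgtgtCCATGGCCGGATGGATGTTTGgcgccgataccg
The ght6 window, with 10 and 1 reads, shares 44 identical bases with ght5 there, and the ght1 window, with 10 and 0 reads, shares 23. Of the stretches of 25 bases that touch the window, all 45 of ght5, all 45 of ght8, 37 of 38 of ght6 and 18 of 37 of ght1 occur elsewhere in the genome, while the rest of those of ght1 do not. By contrast, the ght5 window with 46 and 1 reads has no 25-base stretch elsewhere in the genome.

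Among the 14 lower windows in 3′ UTRs, the most negative log2 ratio after that of rga3 (-4.42) was that of tdh1 (-4.29), and then that of pma1 (-3.24), the gene of the plasma membrane proton pump, with 4 reads in ABP1d and 23 in WT. The 3′ UTR windows of pyk1 and fba1 have 0 reads in ABP1d, so their ratios are bounds and have no fixed place in this order.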
